A study of Mus musculus with 8 samples.

Results

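The genes described here are 9 transcription factors of hair follicle differentiation, Hoxc13, Msx1, Msx2, Foxn1, Gata3, Dlx3, Dlx2, Foxq1 and Cux1. They were taken as every probe whose symbol in the platform annotation was 1 of these names, which gave 13 of the 25697 probes on the array and 9 of its 16593 named genes. Cux1 had 5 probes and each other gene had 1. RNA came from unwounded whole back skin of C57BL6 mice at 10 weeks of age, and each of the 8 mice had an array of its own. All 8 mice carried Med1 alleles flanked by loxP sites (MED1 fl/fl). The 4 KO mice also carried a Cre recombinase under the keratin 14 (K14) promoter, while the 4 control mice are described as wild type by the labels and had the floxed alleles with no Cre named. K14 is active in keratinocytes, and whole skin also yields RNA of muscle, vessels and other cells in which this promoter is not known to be active. The comparison asks how loss of the transcriptional coactivator Med1 from keratinocytes alters gene expression in skin, and here that of the factors which direct the making of hair.

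A hair is built in the bulb of the growing follicle, where dividing matrix cells leave the cycle and turn into the medulla, cortex and cuticle of the shaft or into the inner root sheath that surrounds it. Homeodomain proteins (Hoxc13, Msx1, Msx2, Dlx3, Dlx2 and Cux1), forkhead proteins (Foxn1 and Foxq1) and the zinc finger protein Gata3 are among the factors that steer these choices. In the mouse, Msx2 and Hoxc13 are known to act upstream of the forkhead genes Foxn1 and Foxq1, and loss of Foxn1 causes the nude phenotype. The growing bulb regresses and re-forms with each hair cycle, so these factors are known to follow the growth phase in normal skin.

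All 9 genes were higher in KO skin at the probe with the strongest signal, and none was lower. The call of Gata3 was narrow and was lost in 11 of 18 alternatives, which left 8 genes. The size of the increase was far from even. Msx2, Dlx3, Hoxc13, Dlx2, Msx1, Foxn1 and Foxq1 rose more than 2-fold, Cux1 rose 1.94-fold at its brightest probe, and Gata3 rose only 1.14-fold. Of all 10350 tested genes 63.8% were called, 29.4% as higher and 34.4% as lower in KO skin, and 7.4% were called and at least 2-fold higher, against 7 of the 9 genes here. Each of the 13 probes was called higher (limma, Benjamini-Hochberg adjusted p below 0.05 over 15120 tested probes), where 62.7% of tested probes were called, 30.7% as higher and 32% as lower. In each of the 13 the 4 KO values lay above all 4 control values. Among all tested probes 58% had groups that did not overlap, and among genes 58.4% were also called, so the direction and the size of these changes say more than the absence of overlap. The median log2 change was 2.16 over the 9 genes and -0.04 over all tested genes. The median of the 9 was also 2.16 when Foxn1, which was not above background in control skin, was set to its lower bound. Testing a probe required a detection p under 0.05 on 4 or more arrays, which all 9 genes met. Foxn1 passed through its KO arrays alone and Msx2 and Dlx2 almost so, and a gene that passes in this way had to differ. The Cux1 probes ILMN_1250346 and ILMN_1240019, counted among the 13, also passed through the KO arrays alone and had to differ. With detection required on all 8 arrays 6 of the 9 genes were left, and all 6 were called higher. In whole tissue, more cells of a type and more RNA per cell cannot be told apart.

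**Figure D1:**
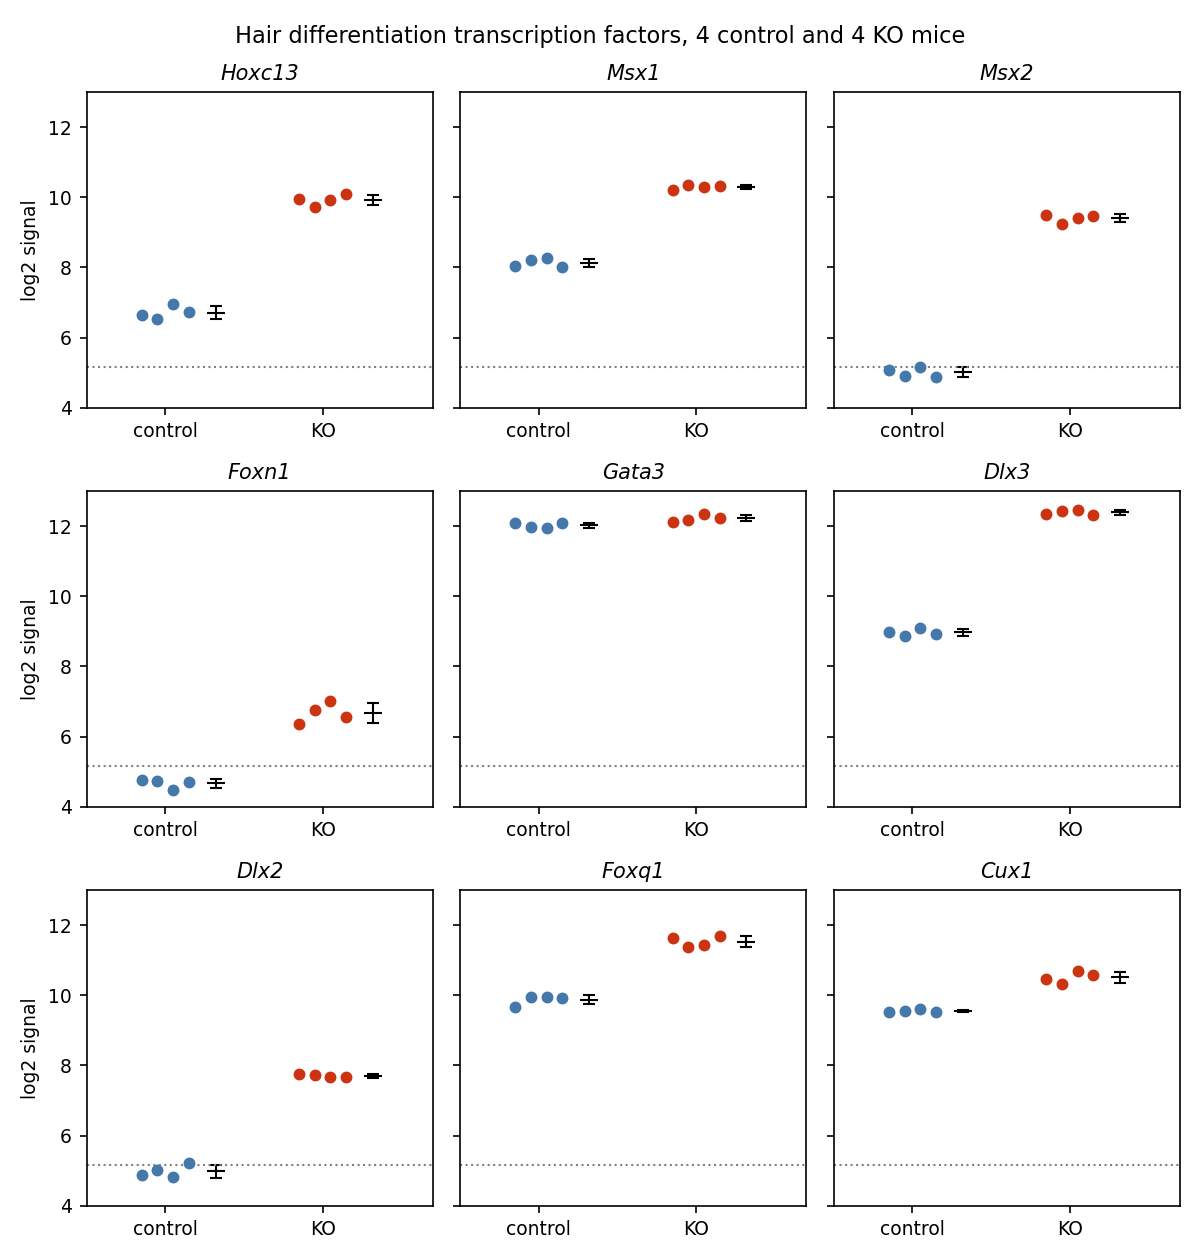
Log2 normalised signal (vertical axes) of the 9 factors at their brightest probes in each of 4 control (blue) and 4 KO (red) mice, with the mean and SD of each group in black beside the points. The dotted line is the mean over arrays of the lowest signal among detected probes. The 2 groups are well apart for every gene except Gata3, whose lowest KO value of 12.13 lies just above the highest control value of 12.09.

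Hoxc13 and Foxn1 are factors of the matrix and the shaft. Hoxc13 is a homeodomain protein known to bind and activate hair keratin genes. Control mice 1 to 4 had log2 signals of 6.63, 6.52, 6.95 and 6.74, and KO mice 1 to 4 had 9.96, 9.73, 9.91 and 10.08. It was detected on all 8 arrays, and the KO values stood more than 2 units above every control value. The log2 change was 3.21 ± 0.11 (SE with 4 mice per group, limma adjusted p = 1.75e-08), which is 9.27-fold. Foxn1, the nude gene, is required for differentiation of the hair cortex. Its signal was 4.75, 4.73, 4.48 and 4.69 in the control mice, where no array detected it, and 6.36, 6.76, 7.0 and 6.56 in the KO mice, where all 4 did. Foxn1 was at least 2.90-fold higher in KO skin (adjusted p = 1.16e-06). This bound sets the KO mean against the lowest signal among detected probes on each control array. It holds for this background correction only, as do the other bounds given here, since the fitted log2 change of Foxn1 was 1.20 with an offset of 50 and 0.70 with the background left in, both below the bound of 1.53. Among its KO mice Foxn1 varied more (SD 0.27) than Hoxc13 (SD 0.15).

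The muscle segment homeobox genes Msx1 and Msx2 encode close relatives, both known from the hair matrix. Loss of Msx2 in the mouse is known to disturb the hair cycle and the shaft. Msx2 had the largest fitted increase of the 9, an order that was lost with the background left in (2.42 against 3.14 for Dlx3). Its log2 signal was 5.08, 4.89, 5.17 and 4.88 in the control mice, at background, with detection on 1 array. In the KO mice it was 9.51, 9.25, 9.41 and 9.46. The raw bead signal, before any correction, was 132.9 to 166.8 in control and 780.1 to 889.5 in KO mice. The log2 change was 4.40 ± 0.09 (SE, adjusted p = 8.24e-10), and its size is approximate because the control mean of 5.01 was near background. Msx1 was well above background in both groups. Its signal was 8.05, 8.20, 8.25 and 8.0 in the control mice against 10.22, 10.34, 10.29 and 10.31 in the KO mice. It rose by 2.16 ± 0.08 (adjusted p = 2.23e-08), or 4.48-fold. The KO mice were alike for Msx1, with an SD of 0.05 against 0.12 in the control mice. The increase of Msx2 exceeded that of Msx1 by 2.24 on the log2 scale and by 0.64 when the background was left in.

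The distal-less homeobox genes gave a similar pair. Dlx3, which is needed for formation of the hair shaft and inner root sheath in the mouse, had signals of 8.99, 8.86, 9.10 and 8.92 in the control mice. In the KO mice it had 12.36, 12.44, 12.45 and 12.31. Dlx3 thus moved from a middling to a strong signal, by 3.42 ± 0.08 (SE, adjusted p = 1.15e-09) or 10.7-fold, with an SD of 0.10 among control and 0.07 among KO mice. This was the largest increase among the 6 genes detected on all 8 arrays. Dlx2 is best known from the developing forebrain and face. Its signal was 4.87, 5.01, 4.82 and 5.21 in the control mice, of which 1 array detected it, and 7.76, 7.74, 7.66 and 7.66 in the KO mice. The change was 2.73 ± 0.09 (adjusted p = 1.64e-08), and it is approximate because the control mean of 4.98 was near background. The increase of Dlx3 exceeded that of Dlx2 by 0.69, but this order was lost with the intensities normalised by the authors (-0.04).

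Foxq1 is the gene mutated in the satin mouse, whose hair has a defect of the medulla. Its log2 signal was 9.67, 9.96, 9.95 and 9.91 in the control mice against 11.63, 11.38, 11.42 and 11.69 in the KO mice. Control mouse 1 lay below the other controls. Foxq1 rose by 1.66 ± 0.10 (SE, adjusted p = 6.10e-07), or 3.15-fold, from a control level that was already well above background.

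Gata3 and Cux1 are linked to the inner root sheath in the mouse. At their brightest probes they changed least, although with the background left in Foxn1 (0.70) changed less than Cux1 (0.86), and other Cux1 probes changed more than Foxq1. Gata3 specifies that lineage and is also a factor of T cells. Its signal was 12.09, 11.97, 11.95 and 12.08 in the control mice against 12.13, 12.18, 12.33 and 12.23 in the KO mice. The change of 0.20 ± 0.07 passed the threshold narrowly (SE, adjusted p = 0.0433), with a 95% interval from 0.03 to 0.36. KO mouse 1 was only just above the highest control mouse. In 11 of 18 alternatives Gata3 no longer passed, although it stayed higher in KO skin in all 18 (0.16 to 0.23, adjusted p between 0.00656 and 0.135). Leaving out control mouse 2, 3 or 4 gave adjusted p = 0.0977, 0.104 and 0.0511, and leaving out KO mouse 2, 3 or 4 gave adjusted p = 0.0651, 0.108 and 0.0796. Of all tested genes 33.7% had a larger increase than Gata3. The same share was 7.77% for Cux1 and at most 3.16% for each of the other 7.

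Cux1 encodes a homeodomain protein with further DNA-binding repeats, and mice that lack its C-terminal part are known to have abnormal inner root sheaths. Its brightest probe, the only 1 of the 5 that the annotation ties to the transcript NM_198602, gave 9.53, 9.56, 9.60 and 9.53 in the control mice. In the KO mice it gave 10.46, 10.32, 10.68 and 10.58. The control mice differed by very little here (SD 0.03), and the change was 0.96 ± 0.09 (SE, adjusted p = 8.55e-06). The 4 other probes are annotated to NM_009986. ILMN_1223862 gave 7.03, 6.56, 6.32 and 6.55 in control against 8.74, 8.48, 8.62 and 8.50 in KO mice, a change of 1.97 ± 0.14 (adjusted p = 1.90e-06). ILMN_1229977 gave 5.66, 5.87, 5.45 and 5.86 in control against 7.59, 7.74, 7.14 and 7.81 in KO mice, a change of 1.86 ± 0.16 (adjusted p = 5.23e-06). These 2 probes of the same gene thus returned larger log2 changes than the brightest 1. The last 2 probes, ILMN_1250346 and ILMN_1240019, were detected on all KO arrays and no control array, and were at least 1.40-fold and 1.30-fold higher in KO skin. The excess over the brightest probe was 1.01 for ILMN_1223862 and 0.90 for ILMN_1229977. With the background left in it was 0.35 for the former and it vanished for the latter (-0.004), so whether the Cux1 transcripts changed unequally is not settled by these probes. Cux1 at its brightest probe changed by 0.76 more than Gata3, and by 0.67 to 0.84 over the 18 alternatives.

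**Figure D2:**
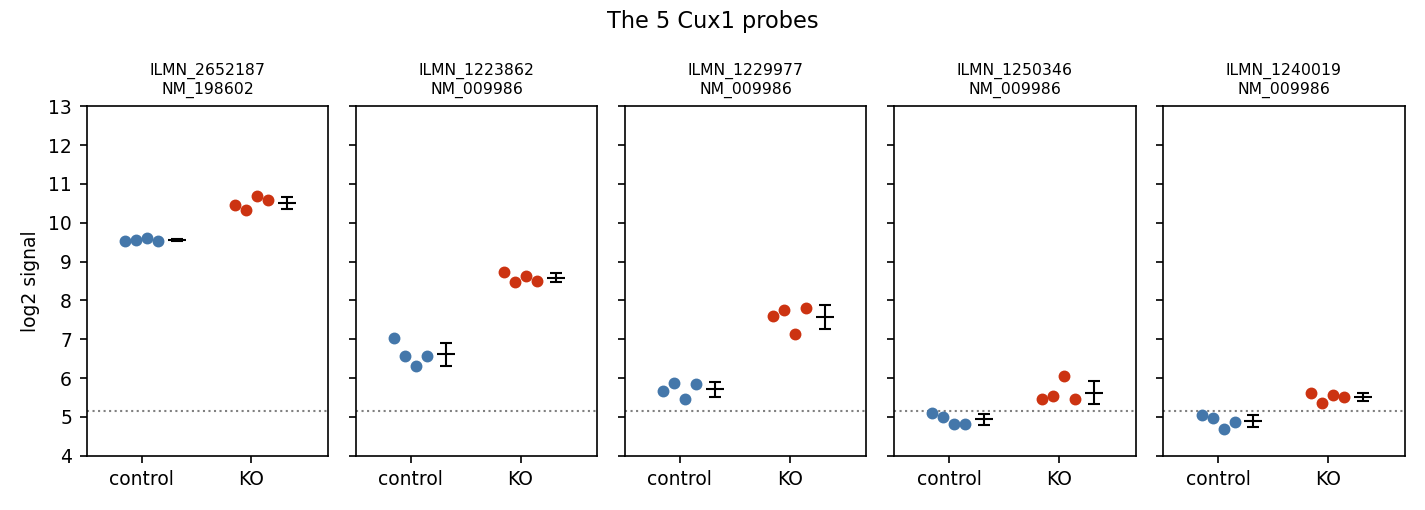
Log2 normalised signal (vertical axis) of the 5 Cux1 probes in 4 control (blue) and 4 KO (red) mice, with mean and SD in black, and the annotated transcript under each probe name. The dotted line is the mean over arrays of the lowest signal among detected probes, and the 2 dimmest probes lie below it in every control mouse and above it in every KO mouse.

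**Figure D3:**
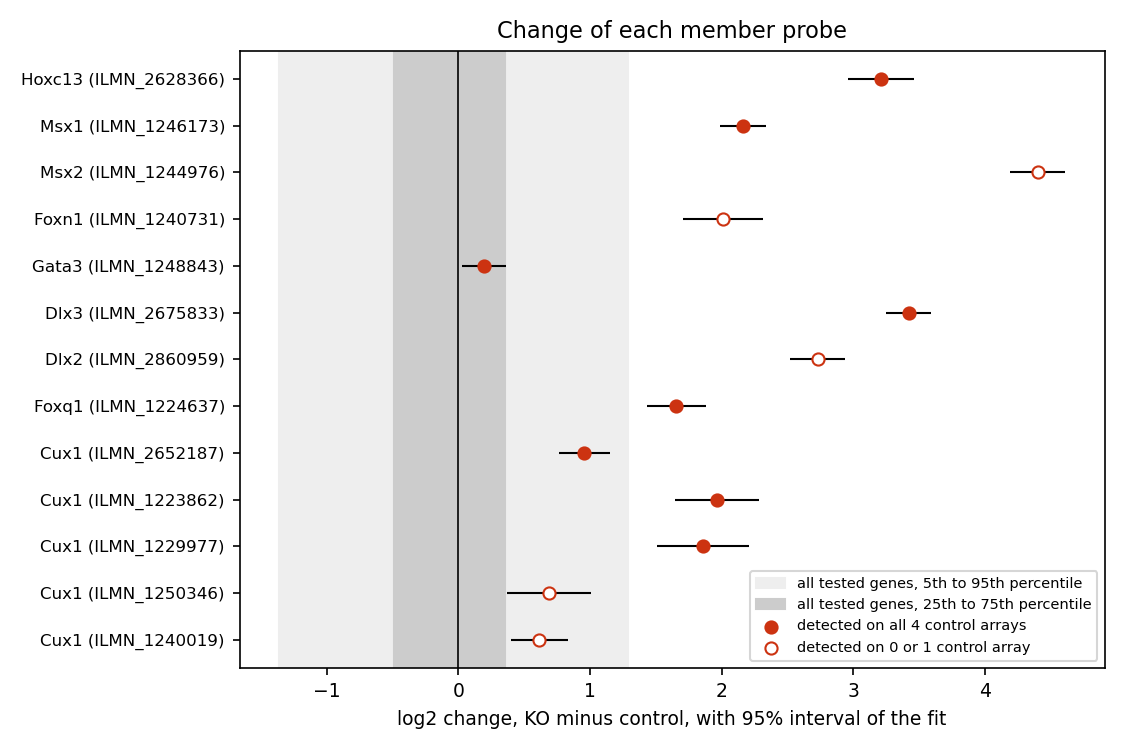
Log2 change, KO minus control (horizontal axis), with the 95% interval of the fit for each of the 13 probes. Filled circles were detected on all 4 control arrays and open circles on 0 or 1, and the grey bands hold the middle of all tested genes, whose 95th percentile is 1.29. Every probe lies to the right of 0, from Gata3 at 0.20 to Msx2 at 4.40.

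Signals near background make the size of a change depend on the correction. With the background left in, the change was 2.42 for Msx2, 1.15 for Dlx2, 0.70 for Foxn1, 1.21 for ILMN_1223862 and 0.86 for ILMN_1229977 of Cux1. All 5 still passed, but Foxn1 and ILMN_1229977 of Cux1 were then no longer past 2-fold. For Hoxc13, Msx1, Dlx3 and Foxq1 the ranges over the 18 alternatives were 2.28 to 3.43, 1.78 to 2.23, 3.14 to 3.48 and 1.54 to 1.71.

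Promoter sequence was available for 6 of the 9 genes, Msx1, Msx2, Foxn1, Gata3, Dlx2 and Cux1 (RefSeq, GRCm38.p6). The 250 bases before the listed start were searched on both strands for short motifs, mostly of the families to which the genes themselves belong. A motif of Lef and Tcf factors and the TATA box were searched as well. The letters TAATT (or AATTA), the core bound by Msx and Dlx homeodomains, were found in Msx2 and Foxn1 and in 25% of all 32851 promoters. The forkhead letters TGTTTA (or TAAACA) were found in Cux1 and in 12% of all promoters. The stretches below show these matches in capitals, each on the strand of its gene. Msx2, Foxn1 and Dlx2 were at or near background in control skin. The Dlx2 promoter held no TAATT, and a link between motif and expression was not tested. Cux1 held the only TGTTTA match.
Msx2, chr13:53472922-53472997, minus strand: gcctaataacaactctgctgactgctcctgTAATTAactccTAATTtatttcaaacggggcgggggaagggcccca
Foxn1, chr11:78386620-78386649, minus strand: aagctgatatcaTAATTAttggctcaccca
Cux1, chr5:136566122-136566151, minus strand: ccccaccccgttTGTTTAcgtcccggggcc
The capitals TAATTA hold TAATT and its reverse complement, which overlap. In Msx2 the 3 matches lie between 187 and 172 bases before the start, and in Foxn1 both lie between 29 and 24 bases before it. The letters TTTAT, read by Hox13 proteins, were found in Msx2 (37.3% of all promoters), overlapping a TAATT. The letters GATAA of GATA factors were found in Dlx2 (22.6%), and GACGC, a Foxn1 core, in Msx2 and Gata3 (22.6%). The letters CTTTGA of Lef and Tcf factors and the TATA box letters TATAAA were found in none of the 6, and in 13.8% and 12.4% of all promoters. The motifs were chosen after these promoters had been seen, and a match is a description of the letters only.

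Of 20 other transcription factors of the follicle, 18 were on the array and 15 were tested. Of these 10 were higher, 2 were lower and 3 did not pass, with a median log2 change of 0.85. Lef1 and Prdm1, among the 10, passed the detection filter through the KO arrays alone and had to be higher. Among all tested genes 29.4% were higher and 34.4% lower. Ovol1, a zinc finger factor of epidermis and hair, rose by 2.31 ± 0.07 (SE, adjusted p = 1.02e-08). Lef1, the partner of beta-catenin in the hair matrix, was detected on no control array and was at least 2.64-fold higher, and Barx2 rose by 1.22 ± 0.08. Nfatc1, a factor of quiescent bulge stem cells, fell by 1.55 ± 0.08 on the log2 scale (adjusted p = 2.68e-07), and Sox18, a factor of vessels, fell by 0.85 ± 0.11. The 3 that did not pass were Tcf7l1 (-0.12), Lhx2 (0.15) and Hr (0.07).

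Of 25 listed paralogs of the 9 factors 24 were on the array and 10 were tested, of which 2 were higher and 4 were lower, with a median of -0.27. Over all tested genes 29.4% were higher and 34.4% lower, so these counts set the paralogs apart in neither direction. Dlx1, the neighbour and closest partner of Dlx2, was the paralog that moved most. It was detected on no control array and on all KO arrays, and was at least 5.64-fold higher in KO skin (adjusted p = 2.52e-08). Dlx1 thus passed the detection filter through the KO arrays alone and had to be higher. Hoxc10 rose by 0.84 ± 0.16, while Hoxc9 fell by 1.25 ± 0.07 and Hoxc6 fell by 1.29 ± 0.09 on the log2 scale, against the 3.21 by which Hoxc13 of the same cluster rose. Gata2 fell by 1.53 ± 0.13 (adjusted p = 7.46e-06) and Foxn3 fell by 0.52 ± 0.08. Dlx4, Dlx5, Msx3, Hoxc11, Hoxc12, Gata1, Gata4, Cux2 and Foxn4 were among the 14 on the array that were too dim to test. Homeobox genes share similar sequence in the homeodomain, and whether a probe captures a paralog was not tested.

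Genes of the signals that act upstream of these factors went mostly up. Of 24 on the array 20 were tested, with 13 higher, 3 lower and 4 that did not pass (median 0.52), beside 29.4% higher and 34.4% lower among all tested genes. Shh, the hedgehog ligand made in the hair bulb, rose by about 4.11 from a control mean of 5.03 near background. Fgf5, the signal that ends hair growth, rose by about 3.34, and Wnt5a by 1.50 ± 0.07. Wnt10a fell by 1.60 ± 0.09 (adjusted p = 4.93e-07) and Nog, the BMP antagonist, was at least 2.01-fold lower and not above background on any KO array. Nog passed the detection filter through the control arrays alone and had to be lower. BMP signals are known to switch on Msx2 and Foxn1 in the matrix. Of the BMP genes tested, Bmp7 rose by 0.88 ± 0.12, Smad1 by 0.54 ± 0.08 and Bmpr1a by 0.34 ± 0.09, while Bmp4 changed by -0.15 (adjusted p = 0.0777) and Smad5 by -0.01 (adjusted p = 0.938).

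Products that the factors are known to control were also higher, where 29.4% of all tested genes were. The 4 genes of the cortex and cuticle and the 2 of the inner root sheath on no control array passed the detection filter through the KO arrays alone. These had to be higher. Only Crym and Selenbp1 of the cortex and cuticle and Padi1 and Krt27 of the inner root sheath were detected on all 8 arrays. Crym rose by 5.89 ± 0.19 and Selenbp1 by 1.06 ± 0.08. Krt27 rose by 7.34 ± 0.90 on average, but its control mice 1 to 4 were split, at 9.58, 5.56, 9.36 and 5.69. Its mean change thus describes none of them well. All 12 tested genes of the cortex and cuticle rose, with a median of 6.89 (6.76 with the 4 that have only a bound set to it), and all 7 tested genes of the inner root sheath rose, with a median of 7.73 (7.35 with 2 at their bound). Dsg4, a desmosomal cadherin of the hair cortex, was at least 6.04-fold higher and Padi3 at least 14.0-fold. Krt35 and Krt82, keratins of the shaft, were at least 171-fold and 29.9-fold higher. In the inner root sheath, Padi1 rose by about 6.33 ± 0.11 from a control mean of 5.62 near background. Krt72 was at least 163-fold higher, beside the 1.14-fold of Gata3 and the 1.94-fold of Cux1 at its brightest probe.

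**Figure D4:**
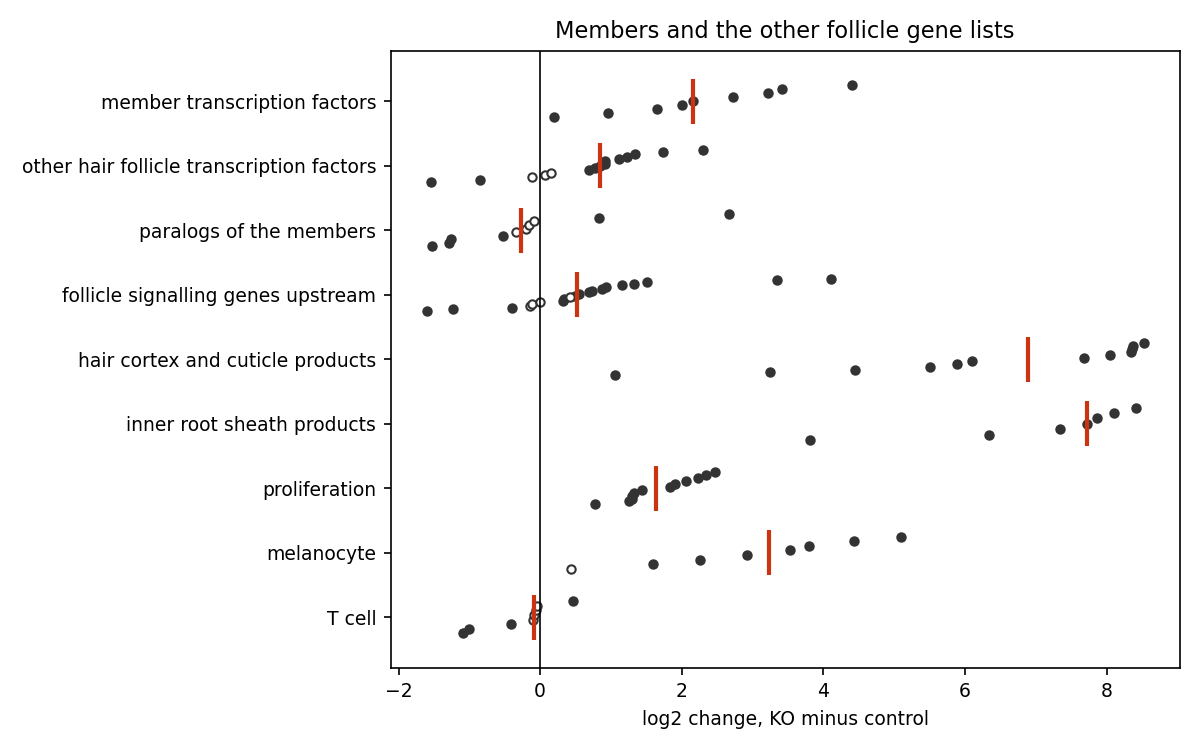
Log2 change, KO minus control (horizontal axis), of each tested gene at its brightest probe, by list. Filled points passed the test, open points did not, and the red bar is the median, which is 2.16 for the 9 factors, 0.85 for the other follicle factors, 6.89 for cortex and cuticle products and 7.73 for inner root sheath products.

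Markers of other cell types were measured in the same samples, where 29.4% of all tested genes were higher and 34.4% lower. The counts of the T cell, dermal papilla and adipocyte lists were small and set these lists apart in neither direction. All 12 tested proliferation genes were higher (median 1.64), and their mean log2 signal lay between 7.64 and 7.75 in control and between 9.36 and 9.40 in KO mice. Of 8 melanocyte genes 7 were higher (median 3.23, or 3.01 with 2 at their bound). Tyr and Oca2, on no control array, passed the detection filter through the KO arrays alone and had to be higher. The mean signal of the melanocyte list went from 5.97 to 6.09 in control to 9.0 to 9.11 in KO mice. Of 8 tested T cell markers 1 was higher and 3 were lower (median -0.09), with mean signals of 6.85 to 6.91 in control and 6.53 to 6.65 in KO mice. Cd247 fell by 1.08 ± 0.14 (adjusted p = 9.64e-05), Cd28 fell by 1.01 ± 0.13 (adjusted p = 0.000101) and Cd3e fell by 0.41 ± 0.08, while Cd3d (-0.04) and Cd3g (-0.09) did not pass, and Cd4 was near background in both groups. All 8 fibroblast and matrix genes were lower (median -0.99, mean signal 12.89 to 13.04 in control and 12.04 to 12.17 in KO mice). All 8 skeletal muscle genes were lower too (median -1.86, 14.38 to 14.46 and 12.68 to 12.73), as were 5 of 6 endothelial genes (median -1.24, 9.07 to 9.29 and 8.02 to 8.15) and all 4 tested macrophage genes (median -0.97, 10.71 to 10.78 and 9.66 to 9.89). Of 8 basal epidermis genes 1 was higher and 5 lower (median -0.45, 12.08 to 12.22 and 11.54 to 11.69), of 8 tested suprabasal genes 4 were higher and 2 lower (median 0.16, 11.41 to 11.46 and 11.35 to 11.46), of 6 tested dermal papilla genes 1 was higher and 2 lower (median -0.15, 7.62 to 7.79 and 7.88 to 7.97), and of 4 tested adipocyte genes 1 was higher and 2 lower (median -0.18, 8.80 to 9.07 and 8.90 to 9.03). The part of these cell types in the changes of the 9 factors was not tested. Krt14, Krt5 and Col1a1 were strong on every array. Med1 itself was lower at 2 of its 3 tested probes, and at the brightest it fell by 0.79 ± 0.14.

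Earlier results of these data had set control mice 1 and 3 apart from control mice 2 and 4 by their higher signal of hair product genes, so a count of such genes is no test of that split. Of all tested genes 15.1% were higher in both of the former than in both of the latter, and of the 9 factors 2 were. Msx2 and Dlx3 were higher in control mice 1 and 3, by 0.23 and 0.15, Dlx2 was lower by 0.27, and the remaining 6 were mixed. Msx2 and Dlx2 were each detected on only 1 control array, so their gaps are of signals at background. Without control mice 1 and 3 the changes were 4.53 for Msx2, 2.60 for Dlx2 and 1.97 for Foxn1, and 8 of the 9 genes were called higher, the exception being Gata3 (0.19, adjusted p = 0.135).

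Genes whose pattern over the 8 arrays was most like that of a factor were listed by Pearson's r, as a description. Since 2 groups far apart set most of r, 1335 of 10200 named genes had r above 0.95 with Hoxc13, and 1385 had it with Msx2. Dlx3 was closest to Padi1, Ovol1 and Gpx2 (r = 0.9998, 0.9997 and 0.9996). Dlx2 was closest to Pmel (r = 0.9991), Shh (r = 0.9991) and Fhdc1 (r = 0.999). For Msx2 these were Psors1c2, Krtap19-1 and Pinlyp (r = 0.9997, 0.9996 and 0.9995), and for Msx1 they were Rab15, Krtap6-2 and Vangl2 (r = 0.9992, 0.999 and 0.9987). Hoxc13 was nearest to Gspt1, Wwc1 and Krt87 (r = 0.9989, 0.9989 and 0.9983), and Foxn1 to Cox6a1, Alyref and Map3k6 (r = 0.9974, 0.9969 and 0.995). Foxq1 was nearest to Fen1, Pkp3 and H2ac24 (r = 0.9966, 0.9965 and 0.9963), and Cux1 to Hspbap1, Kif24 and Pla2g4b (r = 0.9996, 0.9958 and 0.9954). Gata3 stood apart, with only 7 genes above 0.95, and its closest were Mcts1, H2ac8 and Rab21 (r = 0.982, 0.9748 and 0.9697).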

How the data were processed

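The authors deposited bead signals of an Illumina mouse array as intensities on a linear scale, without background subtraction or scaling, and a detection p-value against negative control beads stands beside every signal per the file headers. GenomeStudio 2011.1 is named in the submitters' processing notes. The authors also deposited normalised intensities (each array's median 39.1, method not given in the sources used here), used as an alternative with a floor of 16. The neqc function of limma 3.58.1 (R 4.3.3, offset 16) corrected the background, applied quantile normalisation and took log2. Probes detected (p below 0.05) on at least 4 arrays were tested with lmFit and eBayes over all 8 mice with no covariate, p-values adjusted by Benjamini-Hochberg. Arrays had raw medians of 152.2 to 193.6 and 14593 to 15149 detected probes. With 4 arrays per group, their number limits the precision. Several probes of a gene are represented by the brightest unless each is given. Where every array of a group missed detection, the change is given as a lower bound (at least N-fold). Symbols came from the platform annotation (1719 probes had none), updated through RefSeq GRCm38.p6. All probes of the 9 genes are named, with up to 4 non-overlapping genes of each other list that had the smallest adjusted p, and some list genes beyond these (Sox18, Tcf7l1, Lhx2, Hr, Hoxc10, Foxn3, Nog, the BMP genes, Dsg4, Crym, Selenbp1, Krt27 and T cell markers among them) were named after their values were seen. The same holds for the pairs of probes compared. The genes and lists were chosen with earlier results of these data known. The fit was tested on simulated data.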

Additional observations from a re-analysis of the deposited data

Results flagged for a closer look

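In 2 of 26 sets of 4 mice, 1 mouse lay apart from the other 3 by more than Dixon's critical value (gap over range), and chance alone gives about 1 in 20. Foxq1 in control mice had a ratio of 0.836, with control mouse 1 at 9.67 below the others at 9.91 to 9.96. The Cux1 probe ILMN_1250346 in KO mice had a ratio of 0.865, with KO mouse 3 at 6.06 above the others at 5.45 to 5.53. Without control mouse 1 Foxq1 rose by 1.59 (limma adjusted p = 2.62e-06), and without KO mouse 3 that Cux1 probe rose by 0.55 (limma adjusted p = 0.00101).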

How the results depend on the processing

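Over 19 alternatives the count of the 9 factors called higher was 9 or 8 in all but the strict detection filter (6), and none was called lower in any. The only factor whose call was lost was Gata3, by scaling to a common median (0.18, adjusted p = 0.0939), no detection filter (adjusted p = 0.0640), the replicate number as a block (adjusted p = 0.0980), leaving out control mice 1 and 3 (adjusted p = 0.135) or, chosen after seeing the data, control mice 2 and 4 (adjusted p = 0.132), and 6 of 8 fits without 1 mouse (the change was 0.16 to 0.23 over all 8). The other 12 probes passed in every alternative in which they were tested. The labels name no pairing of same-numbered mice of the 2 groups. The correlations of their deviations were -0.107, 0.0104, 0.0587 and -0.0879, which cannot exclude a shared litter or batch. With the replicate number as a block 9192 probes were called against 9473, 8 factors were higher, and no factor but Gata3 changed its call. Averaging the probes of a gene put Cux1 at 1.22. The strict filter left 2 higher cortex and cuticle genes and 2 higher inner root sheath genes, since fewer genes were tested. Signal near background limits the sizes given for Msx2, Dlx2 and Foxn1.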
